A study of Mus musculus with 23 samples.

Results

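The genes described here are 10 amino acid transporters of the plasma membrane, measured in TM4 cells, a mouse Sertoli cell line that was immortalized and so models the testis cell only in part. They were chosen by name, with earlier results of these data known. Their probes are the array's non-control probes whose RefSeq transcript belongs to Slc7a1, Slc7a3, Slc7a5, Slc7a6, Slc3a2, Slc38a1, Slc38a2, Slc1a4, Slc1a5 or Slc6a9. The transporters make up 10 of the 20145 genes named on the array, with 15 of its 26582 named probes. TM4 cells were kept for 48 hr with 100 μM of MEHP (mono(2-ethylhexyl) phthalate, the active metabolite of the plasticizer DEHP), DINCH (diisononyl cyclohexane dicarboxylate), DOM (dioctyl maleate), BDB (butanediol dibenzoate) or DOS (dioctyl succinate), or with the vehicle alone. All 6 groups held 1% DMSO, and the labels call the samples of a group biological replicates. There were 23 samples on 23 one-colour (Cy3) arrays, 4 for each group and 3 for DOS (replicates 1, 3 and 4), placed on 3 slides.

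Cells take up amino acids through families of membrane carriers that differ in the amino acids they accept and in what drives them. Slc3a2, the CD98 heavy chain, has no transport path of its own and carries light chains such as Slc7a5 (LAT1), an exchanger of large neutral amino acids including leucine, and Slc7a6, an exchanger of cationic for neutral amino acids, to the membrane. Slc7a1 and Slc7a3 take up arginine and lysine, Slc38a1 and Slc38a2 take up glutamine, alanine and other small neutral amino acids with sodium, Slc1a4 and Slc1a5 exchange small neutral amino acids, and Slc6a9 takes up glycine. Several of these genes are known targets of ATF4, the transcription factor of the amino acid response, and Sertoli cells are known for supplying nutrients to germ cells.

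A level below is the log2 of the processed intensity relative to the array's 75th percentile, so a level of 0 is that percentile, and a gene with several probes is given by the probe that was brightest on average. Levels of different probes cannot be set against each other. Change means the difference in log2 level between a compound and DMSO, with the adjusted p of limma (Benjamini-Hochberg over all probes tested), and a gene was called when at least 1 probe changed over 1.5-fold with an adjusted p under 0.05. All 10 transporters were well above background on all 23 arrays and no spot was saturated. The 75th percentile of an array lay between 204.6 and 350.7 intensity units, and 43.4% to 52.2% of its spots were well above background. Precision depends on how many arrays a group has and on how far they spread.

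As to the cells themselves, 7 of 17 Sertoli cell markers, among them Gata4, Inha and Dhh, were well above background on every array, while Wt1, Fshr, Sox8 and Cldn11 were so on no array. Of the germ cell markers 0 of 5 reached it on every array, and Ddx4 and Dazl reached it on no array. Of the markers of other testis cells on the array, 1 of 4 for Leydig cells (Cyp17a1), 2 of 4 for peritubular myoid cells (Acta2 and Cnn1), 1 of 4 for macrophages (Csf1r) and 2 of 4 for endothelial cells (Pecam1 and Kdr) reached it on every array. Cyp11a1, Hsd3b1, Myh11, Ptprc, Adgre1, Lyz2, Cdh5 and Tek reached it on no array. The summed linear level of the Sertoli markers, in multiples of the 75th percentile, ran from 14.7 to 28.6 in DMSO. It ran from 14.7 to 20.2 with DINCH and from 43.8 to 69.6 with DOM. Such a sum is ruled by its brightest probes and does not show that every marker moved. The sum of the myoid markers ran from 30.3 to 38.7, 35.9 to 50.9 and 36.5 to 48.9 in the same groups. Cnn1 of that list changed by -1.21 with DOM (adjusted p = 0.000967 by limma). The myoid sum was not lower there, so Cnn1 does not stand for the list. With MEHP, BDB and DOS the Sertoli sum ran from 13.4 to 22.7, 15.1 to 31.6 and 18.5 to 38.8. The myoid sum ran from 24.5 to 26.6 with MEHP, wholly below DMSO, and from 32.3 to 42.6 with BDB. With DOS it ran from 47.6 to 65.7, wholly above DMSO, while the DINCH and DOM ranges overlapped that of DMSO. The part of these shifts in the results below was not tested. In bulk RNA, fewer cells of a type and less RNA per cell cannot be told apart. DOM and DOS shared the DMSO arrays' slide positions, given by the last index of the array barcode (2 or 4). MEHP, DINCH and BDB lay at the other positions (1 or 3), so slide position and compound cannot be told apart for these 3.

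RefSeq promoter windows on GRCm38.p6, reaching from 250 bases before to 50 bases after a transcript start, were matched by symbol for 6 of the 10 genes, in 10 windows. They were searched on both strands for TGATGNAA, the element bound by ATF4 together with C/EBP factors, because many genes of the amino acid response carry it. Of all 32851 windows, 1304 (3.97%) held it, and of the 10 transporter windows 1 did, that of Slc1a4. The E-box CACGTG was in 7.15% of all windows and in 0 of the 10. The last 100 bases before the start and the first 10 after it are printed for Slc3a2, the gene among those called for DOM that these windows cover, for Slc1a4 and for Slc38a2, with the match in capitals.
Slc3a2, chr19:8713888-8713997, minus strand: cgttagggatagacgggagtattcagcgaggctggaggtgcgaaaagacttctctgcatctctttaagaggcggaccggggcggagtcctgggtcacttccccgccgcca
Slc1a4, chr11:20332704-20332813, minus strand: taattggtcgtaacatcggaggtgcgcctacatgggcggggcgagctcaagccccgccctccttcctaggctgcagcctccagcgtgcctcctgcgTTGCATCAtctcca
Slc38a2, chr15:96699719-96699828, minus strand: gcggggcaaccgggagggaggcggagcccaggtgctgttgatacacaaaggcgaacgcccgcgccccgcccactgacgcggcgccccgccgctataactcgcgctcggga
In Slc1a4 the match was on the opposite strand and began 4 bases before the start. A match is only a description of these letters and no site, and the absence of one says nothing of ATF4 at these genes.

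Transporters were called for DOM and for DINCH, and 0 of 10 for MEHP, BDB or DOS. With DOM, 3 of 10 transporters were called, all lower (Slc7a5, Slc7a3 and Slc3a2), where 20.5% of all 12005 genes tested were called in either direction and 10.6% were called lower. With DINCH, 5 of 10 were called, all lower (Slc7a5, Slc7a1, Slc7a3, Slc6a9 and, on its second-brightest probe alone, Slc38a1), where 8.26% of all genes were called and 4.02% were called lower. The DINCH count fell to 2 without DMSO replicate 1, 3 or 4 or DINCH replicate 1 or 4, to 3 without DMSO replicate 2, to 2 with detection on 1 array, and to 0 with no filter on dim probes and on the arrays whose extraction metrics were all in range. Calls over all genes fell under these settings as well, from 984 of 11913 in the main fit to 609 of 14146 with detection on 1 array. They were 796 of 11967, 571 of 11922 and 817 of 12050 without DMSO replicate 1, 3 and 4. Without DINCH replicate 1 and 4 they were 671 of 11947 and 694 of 11984. Without DMSO replicate 2 they were 765 of 11980. With no filter 97 of 20145 genes were called, and on the in-range arrays 3 of 12133, so few genes of any kind were called there. The median change over the 10 genes was -0.45 with DOM and -0.46 with DINCH, beside -0.03 and -0.00 over all genes. It was -0.19 with MEHP, -0.15 with DOS and -0.07 with BDB, beside -0.01, -0.01 and -0.03 over all genes. The 5 comparisons share the DMSO arrays, so one low or high DMSO value enters each of them.

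**Figure D1:**
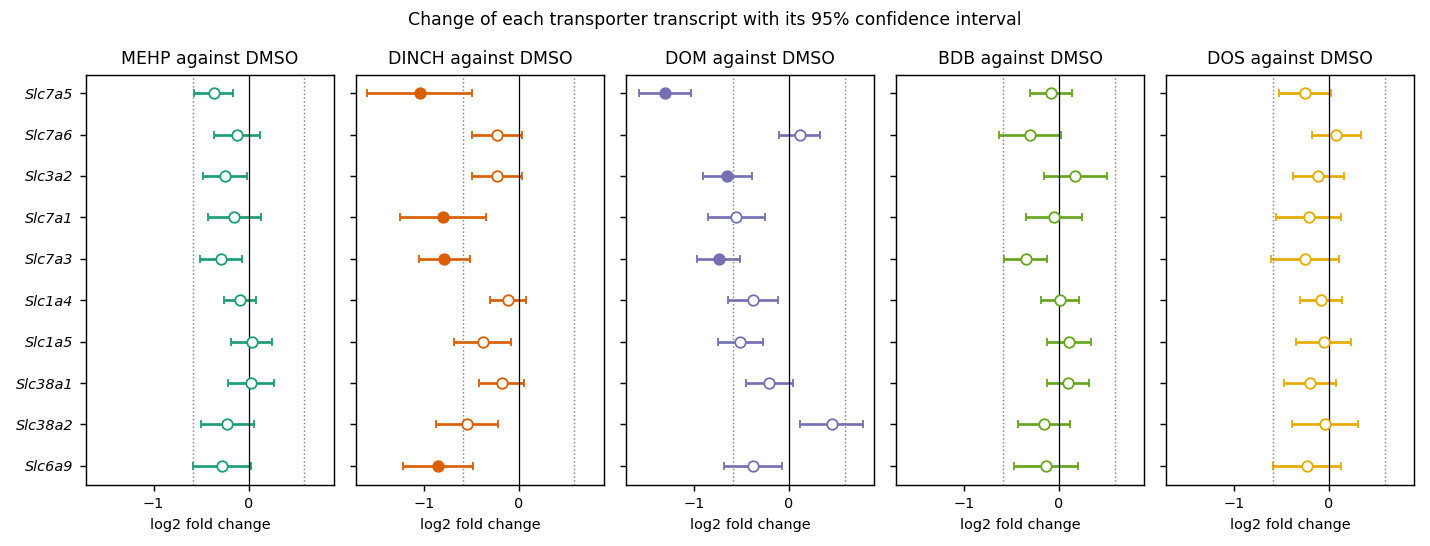
Change of each of the 10 transporters with each compound against DMSO. Points are log2 fold changes of the brightest probe, bars are 95% confidence intervals, filled points passed both thresholds and dotted lines mark 1.5-fold. Filled points occur for DINCH (4 genes, all below 0) and DOM (3 genes, all below 0), and Slc38a2 lies above 0 with DOM and below 0 with DINCH.

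Slc7a5, the leucine-carrying light chain, had the largest fall of the 10 with DOM. Its level on DMSO replicates 1 to 4 was 4.62, 4.44, 4.46 and 4.25, and on DOM replicates 1 to 4 it was 2.93, 3.17, 3.35 and 3.12. Every DOM array lay far below every DMSO array. The fall was 2.46-fold (log2 change -1.30, SE 0.12, adjusted p = 0.00027), and the second probe fell by 0.79 (adjusted p = 0.00137). Within slides 1, 2 and 3 the change was -1.57, -1.10 and -1.13, and with slide as a block the call was kept. Here and below, a within-slide value rests on 1 or 2 arrays per group. Slide 1 held 1 DMSO array, replicate 1, the highest in DMSO for Slc7a5.

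With DINCH, Slc7a5 was at 2.87, 3.63, 4.08 and 3.02 on replicates 1 to 4. All lay below the lowest DMSO array, but they spread widely, replicates 1 and 4 reaching the DOM range and replicate 3 lying close to DMSO. On these arrays 45.1%, 45.4%, 52.2% and 43.4% of spots were well above background. Replicate 3 had the highest and replicate 4 the lowest share of all 23 arrays, and replicate 1 had the lowest 75th percentile (204.6). Whether this bears on the spread was not tested. The mean fell 2.06-fold (-1.04, SE 0.24, adjusted p = 0.029), and the second probe changed by -0.38 (adjusted p = 0.122). The call on Slc7a5 was lost when DMSO replicate 1, 2, 3 or 4 or DINCH replicate 1 or 4 was left out, with changes between -0.87 and -1.11 and adjusted p between 0.0512 and 0.0791. Within the slides its change was -1.75, -0.83 and -0.70.

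MEHP gave 4.08, 4.01, 4.09 and 4.11 for Slc7a5, a narrow band that lay wholly below the DMSO arrays. The change of -0.37 had an adjusted p of 0.0822 and was not called. Ordered by mean, Slc7a5 stood at 4.44 ± 0.15 (SD, n = 4) in DMSO, 4.35 ± 0.07 with BDB, 4.19 ± 0.12 (n = 3) with DOS, 4.07 ± 0.04 with MEHP, 3.40 ± 0.56 with DINCH and 3.14 ± 0.17 with DOM. The arrays of each neighbouring pair in this order overlapped.

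**Figure D2:**
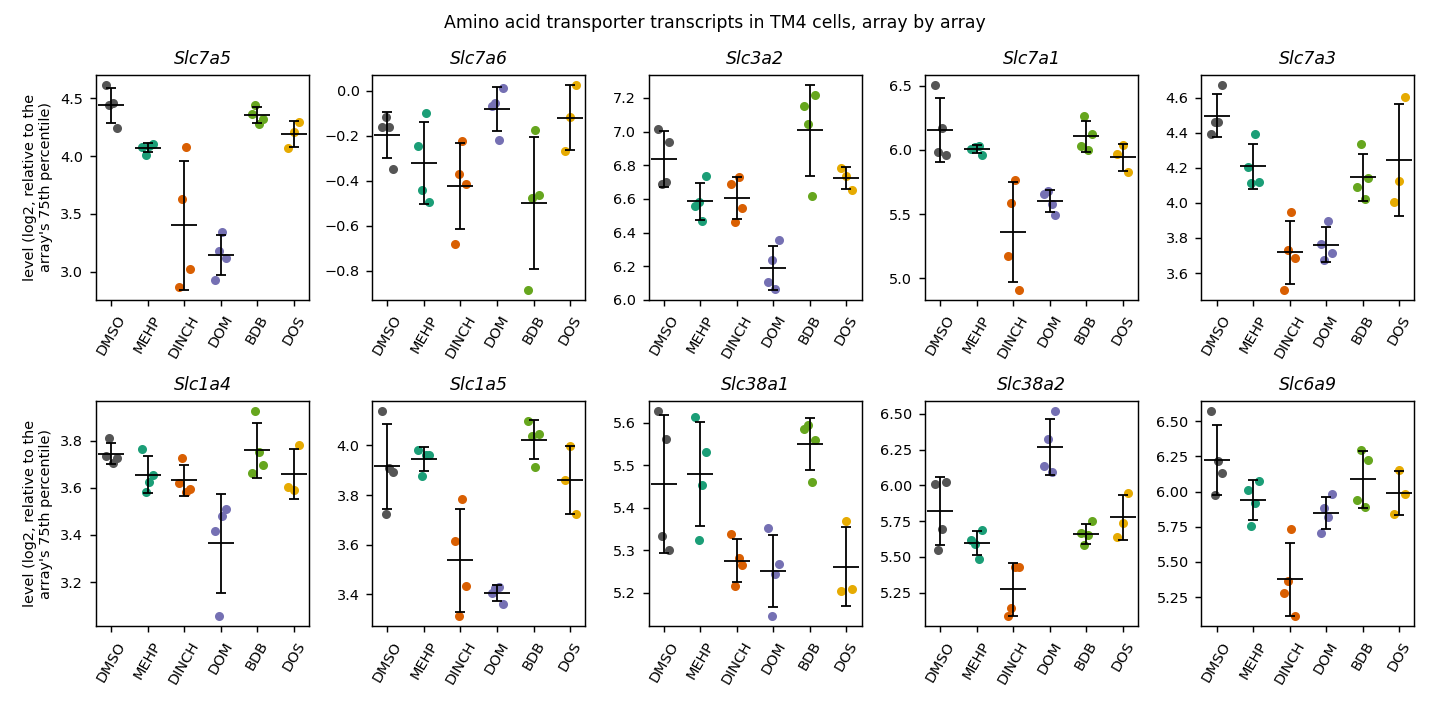
Level of each transporter on each of the 23 arrays by group. Points are arrays (4 per group, 3 for DOS), the horizontal line and bar are the mean and SD, and each panel has its own vertical axis. Slc7a5 falls from 4.25 to 4.62 on the DMSO arrays to 2.93 to 3.35 on the DOM arrays, and the DINCH arrays span 2.87 to 4.08.

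Slc3a2, the heavy chain that Slc7a5 and Slc7a6 need, was at 7.02, 6.69, 6.70 and 6.94 in DMSO and at 6.11, 6.23, 6.07 and 6.35 with DOM. No DOM array reached the DMSO range. The fall was 1.56-fold (-0.65, SE 0.12, adjusted p = 0.00346) and measured -0.85, -0.63 and -0.58 within the slides. Under quantile normalization (-0.44) and normexp correction (-0.57) it kept an adjusted p of 0.0201 and 0.0035 but stayed under 1.5-fold. With DINCH its arrays overlapped those of DMSO (-0.23, adjusted p = 0.247).

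Slc7a6, the other light chain of the group, changed by 0.11 with DOM (95% confidence interval -0.10 to 0.33, adjusted p = 0.395) and by -0.23 with DINCH (adjusted p = 0.265). Its arrays overlapped those of DMSO for every compound.

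Of the carriers of arginine and lysine, Slc7a3 was called for both DOM and DINCH. It stood at 4.40, 4.46, 4.46 and 4.67 in DMSO, at 3.76, 3.67, 3.90 and 3.71 with DOM and at 3.50, 3.73, 3.95 and 3.69 with DINCH. Neither treated group overlapped DMSO. It fell 1.67-fold with DOM (-0.74, SE 0.10, adjusted p = 0.000985) and 1.72-fold with DINCH (-0.78, SE 0.12, adjusted p = 0.0067). Within the slides the change ranged from -0.96 to -0.56 with DOM and from -0.89 to -0.73 with DINCH. MEHP (-0.29, adjusted p = 0.177) and BDB (-0.35, adjusted p = 0.166) also had no array within the DMSO range but were not called, and 14.4% of all genes with MEHP and 12% with BDB had no overlap with DMSO.

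Slc7a1, the more widely expressed of these carriers, stood at 6.51, 5.98, 6.17 and 5.96 in DMSO and at 5.17, 5.59, 5.77 and 4.91 with DINCH. The 2 groups did not overlap, and replicates 1 and 4 were again the lowest. It fell 1.74-fold with DINCH (-0.80, SE 0.20, adjusted p = 0.0378). That call was lost when any 1 of DMSO replicates 1 to 4 or DINCH replicate 1 or 4 was left out (-0.65 to -0.86, adjusted p 0.0589 to 0.0975), with slide as a block (-0.77, adjusted p = 0.0639) and under quantile normalization (-0.77, adjusted p = 0.0525). Within the slides the change was -1.33, -0.49 and -0.62. With DOM it lay at 5.49 to 5.68, below every DMSO array, and changed by -0.55 (adjusted p = 0.0128), which at 1.47-fold is just under the fold limit. It was called for DOM with slide as a block (-0.61, adjusted p = 0.00563) and without DMSO replicate 2 (-0.61, adjusted p = 0.0172) or 4 (-0.62, adjusted p = 0.0139).

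Slc6a9, the glycine carrier, had the next largest fall after Slc7a5 with DINCH. It stood at 6.57, 5.98, 6.22 and 6.13 in DMSO and at 5.28, 5.37, 5.74 and 5.12 with DINCH. Every DINCH array lay below every DMSO array. It fell 1.80-fold (-0.85, SE 0.17, adjusted p = 0.0154), and its second probe fell by 0.92 (adjusted p = 0.0146). Slc6a9 and Slc7a3 were the 2 transporters that were called for DINCH whichever array was left out. Both calls were lost with no filter on dim probes (adjusted p = 0.111 for Slc6a9 and 0.0728 for Slc7a3) and on the in-range arrays (-0.83, adjusted p = 0.144, and -0.62, adjusted p = 0.0907). With DOM the change was -0.38 on the brightest probe (adjusted p = 0.0635) and -0.47 on the other (adjusted p = 0.035), neither past 1.5-fold.

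The sodium-driven glutamine and alanine carriers did not follow one direction. Slc38a2, known to be induced when amino acids are scarce, stood at 6.01, 5.55, 5.70 and 6.03 in DMSO, at 6.14, 6.32, 6.09 and 6.52 with DOM and at 5.09, 5.14, 5.43 and 5.43 with DINCH. All DOM arrays lay above and all DINCH arrays below the DMSO arrays. The change was 0.45 with DOM (1.37-fold, SE 0.15, adjusted p = 0.0439) and -0.55 with DINCH (1.46-fold, SE 0.14, adjusted p = 0.0419), both under the fold limit. It was called higher for DOM under quantile normalization (0.63, adjusted p = 0.0118), and lower for DINCH with slide as a block (-0.64, adjusted p = 0.0133) and without DMSO replicate 2 (-0.64, adjusted p = 0.0408). Slc38a2 was the only one of the 10 transporters with an adjusted p below 0.05 and a higher level with any compound against DMSO. Within the slides it was 0.22, 0.47 and 0.49 with DOM and -0.92, -0.48 and -0.60 with DINCH.

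**Figure D3:**
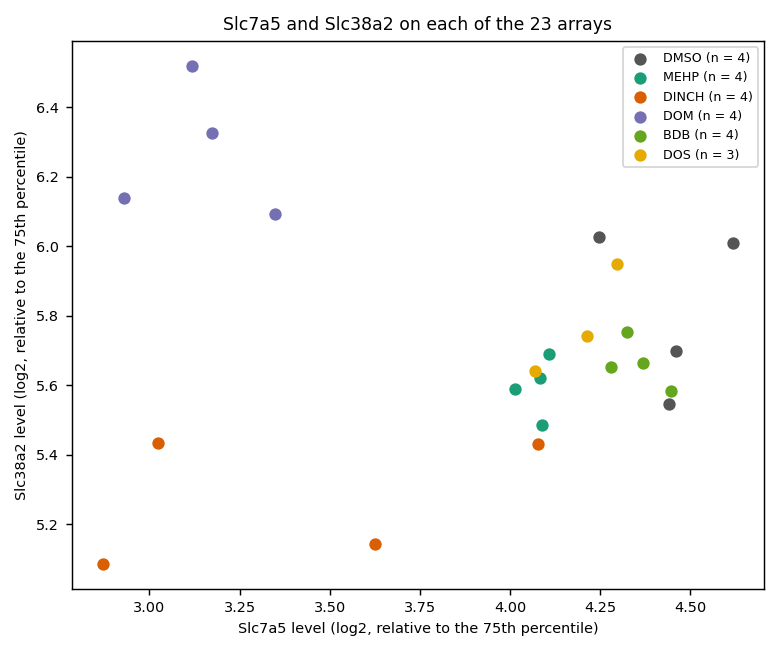
Level of Slc7a5 against level of Slc38a2 on each of the 23 arrays, both in log2 relative to the array's 75th percentile, with 1 point per array coloured by group. The DOM arrays sit at the upper left, with Slc38a2 at 6.09 to 6.52, and the DINCH arrays at the bottom, with Slc38a2 at 5.09 to 5.43 and Slc7a5 spread from 2.87 to 4.08.

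For Slc38a1 the 3 probes disagreed. On the brightest, the change was -0.18 with DINCH (adjusted p = 0.322) and -0.20 with DOM (adjusted p = 0.18). On the second brightest, levels were 1.88, 1.85, 1.84 and 1.76 in DMSO and 0.81, 1.44, 1.43 and 1.20 with DINCH, with no overlap. That probe fell by 0.61 with DINCH (1.53-fold, adjusted p = 0.0286) and changed by 0.12 with DOM (adjusted p = 0.341), while the dimmest gave -0.34 with DINCH (adjusted p = 0.199). The call on Slc38a1 therefore rests on 1 of its 3 probes.

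The neutral amino acid exchangers moved with DOM by less than 1.5-fold. Slc1a5, the glutamine-accepting exchanger, lay at 3.72 to 4.14 in DMSO and at 3.36 to 3.43 with DOM, without overlap. It changed by -0.51 (1.43-fold, SE 0.10, adjusted p = 0.00627), and its second probe by -0.49 (adjusted p = 0.0174). Slc1a4 changed by -0.38 with DOM (adjusted p = 0.0352), its DOM arrays at 3.06 to 3.51 all below the DMSO arrays at 3.71 to 3.81. With DINCH, Slc1a5 changed by -0.38 (adjusted p = 0.105) and Slc1a4 by -0.11 (adjusted p = 0.453). Thus 7 of the 10 transporters had an adjusted p below 0.05 with DOM, 6 lower and 1 higher, where 35.5% of all genes had one on their brightest probe. With DOM, 7 of 10 had no overlap with DMSO, where 39.4% of all genes had none. With DINCH it was 5 of 10 on both counts, where 13.1% of all genes had an adjusted p below 0.05 and 24% had no overlap.

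For MEHP 0 of 10 transporters were called by limma, with 3 at an unadjusted p below 0.05 (Slc7a5, Slc7a3 and Slc3a2), where 1.68% of all genes were called and 18.9% were at that unadjusted level on their brightest probe. For BDB 0 of 10 were called, with 1 at an unadjusted p below 0.05 (Slc7a3), and for DOS 0 of 10 with 0 at that level, where 0% of all genes were called for either compound and 16.3% with BDB and 6.34% with DOS were at the unadjusted level. These 3 counts were 0 under every alternative setting as well. Their 95% confidence intervals leave room for moderate changes: that of Slc7a5 ran from -0.57 to -0.16 with MEHP, from -0.52 to 0.02 with DOS and from -0.31 to 0.13 with BDB.

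The compounds were then compared with each other at the same dose and time, in 4 pairs, with p adjusted over all probes within each pair. DOM and DOS are both dioctyl diesters and differ in the diacid core, which has a carbon double bond in maleate and none in succinate. Between them 1 of 10 transporters was called, Slc7a5, where 15.2% of all genes were called. The DOS arrays 1, 3 and 4 gave 4.07, 4.21 and 4.30, all above the DOM arrays. Slc7a5 was 2.07-fold lower with DOM than with DOS (-1.05, SE 0.13, adjusted p = 0.00228; second probe -0.68, adjusted p = 0.0104). Slc3a2 (-0.53, adjusted p = 0.0148) and Slc1a5 (-0.46, adjusted p = 0.0214) were lower and Slc38a2 (0.49, adjusted p = 0.042) was higher with DOM, each under 1.5-fold. Slc38a2 was called higher with DOM than with DOS under quantile normalization (0.68, adjusted p = 0.0128) and with slide as a block (0.63, adjusted p = 0.0188). For Slc38a1 on its brightest probe (-0.01, 95% confidence interval -0.25 to 0.23) and Slc7a6 (0.04, -0.23 to 0.30) the intervals held 0 and did not reach 1.5-fold. On the second-brightest Slc38a1 probe, which was not called, the DOM arrays (1.78 to 2.03) lay above the DOS arrays (1.58 to 1.74). Left without DOM replicate 4, Slc3a2 was called too (2 of 10), where 1491 of 11959 genes were called.

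Between DOM and DINCH, which differ in both the core and the side chains, 2 of 10 transporters were called, both higher with DOM, where 23.3% of all genes were called. Slc38a2 was 1.99-fold higher (1.00, SE 0.14, adjusted p = 0.000621), and Slc38a1 was 1.67-fold higher on its second-brightest probe alone (adjusted p = 0.00529). Slc3a2 was lower with DOM (-0.42, adjusted p = 0.0195) and Slc6a9 higher (0.47, adjusted p = 0.0298), each under 1.5-fold. For Slc7a5 the difference was -0.26 with an interval from -0.80 to 0.29 (adjusted p = 0.441), and for Slc7a3 it was 0.05 with an interval from -0.22 to 0.31 (adjusted p = 0.793).

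Against MEHP, DOM had Slc7a5 1.91-fold lower (-0.93, SE 0.10, adjusted p = 0.000246) and Slc38a2 1.59-fold higher (0.67, SE 0.11, adjusted p = 0.00183), 2 of 10 transporters where 19.5% of all genes were called. Between MEHP and DINCH 0 of 10 were called by limma, where 2.4% of all genes were called, while 6 of 10 had an unadjusted p below 0.05, all higher with MEHP, where 21.9% of all genes had one. The largest of these was Slc7a5 (0.67, 95% confidence interval 0.15 to 1.20, adjusted p = 0.164). Without DINCH replicate 3, the array with the highest Slc7a5 of that group, 3 of 10 were called (Slc7a5, Slc7a1 and Slc6a9). Of all genes, 307 of 11836 were called then.

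Of the 10 transporters, pairs were also compared over the 23 arrays, which share the 6 groups and the 3 slides, as a description. Slc7a1 rose and fell with Slc6a9 (r = 0.88) and with Slc7a5 (r = 0.87). After each group's mean was taken off, r was 0.73 and 0.76 over all groups pooled. The DINCH arrays spread most for Slc7a5 (SD 0.56, beside 0.15 in DMSO) and Slc7a1 (0.39, beside 0.25). That group therefore weighs most in the second value, and r was not taken in each group alone. Slc7a5 and its heavy chain Slc3a2 had r = 0.71 over all arrays and 0.06 within groups. Among 11206 genes well above background on every array, the 5 most like Slc7a5 were Rrp15 (0.93), Phf10 (0.92), Tlr2 (0.92), Prkg2 (0.91) and Slc29a1 (0.91). Those most like Slc3a2 were Top1mt (0.94), Naa20 (0.92), Slc25a33 (0.92), Gtpbp2 (0.90) and Qtrt1 (0.90).

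Of 44 other plasma membrane and related amino acid transporters, 17 passed the filter on dim probes in the DOM and DINCH comparisons. With DOM 4 of the 17 were called, 3 higher and 1 lower, where 20.5% of all genes were called, and their median change was 0.26. Under normexp correction and with no filter on dim probes 2 were called (Slc43a2 and Slc6a6), where 1627 of 12005 and 1877 of 20145 genes were called. Slc43a2, a carrier that lets branched-chain amino acids and phenylalanine leave or enter without an exchange partner, stood at -2.42, -2.16, -1.76 and -2.25 in DMSO and at 1.09, 0.24, 0.08 and 0.91 with DOM. The groups lay far apart, and the rise was 6.63-fold (2.73, SE 0.24, adjusted p = 0.000232). Slc6a6, the taurine carrier, rose by 0.75 with DOM (adjusted p = 0.00227) and fell by 0.59 with DINCH (adjusted p = 0.0157). The DINCH call on Slc6a6 was lost without DMSO replicate 1 or 3 or DINCH replicate 3 or 4, with slide as a block, with no filter and on the in-range arrays. Slc38a6 rose by 0.65 with DOM (adjusted p = 0.0454), a call that was lost without DMSO replicate 1, 3 or 4 or DOM replicate 2, 3 or 4 and under 5 other settings. Slc16a10, an aromatic amino acid carrier, fell by 0.77 with DOM (adjusted p = 0.0128) and by 0.76 with DINCH (adjusted p = 0.0086), though it was well above background on only 3 DOM arrays and 1 DINCH array of 4.

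Slc43a2 and Slc7a5 carry overlapping amino acids, and with DOM one rose while the other fell. In the direct comparison with DOS, Slc43a2 was 5.59-fold higher with DOM (adjusted p = 0.00165), and in that with DINCH it was 4.43-fold higher (adjusted p = 0.000141). With DINCH itself it changed by 0.58 (adjusted p = 0.0379), just under 1.5-fold.

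All 20 genes of a list of the ATF4 amino acid response, chosen with earlier results of these data known, were tested. With DOM 12 were called, all lower, with a median change of -0.67. Of all genes 20.5% were called and 10.6% were called lower. Fgf21, a hormone gene induced by ATF4, fell 6.95-fold (-2.80, adjusted p = 0.000106), and Cth, the enzyme that makes cysteine from cystathionine, fell 4.58-fold (-2.20, adjusted p = 0.000108). Atf3 fell by 1.24 (adjusted p = 0.00434) and Trib3 by 1.21 (adjusted p = 0.000744). Atf4 itself, named after its values were seen, fell by 0.66 on the probe that was called (adjusted p = 0.00323), and that call was lost without DMSO replicate 1, under normexp correction and on the brightest probe only. With DINCH 7 of the 20 were called, all lower, with a median of -0.40. Of all genes 8.26% were called and 4.02% were called lower. Among the 7 were Cth (-0.84, adjusted p = 0.0168) and Trib3 (-0.68, adjusted p = 0.0269), while Fgf21 was not called (-0.30, adjusted p = 0.0962). The DINCH count fell to 3 without DMSO replicate 3 or DINCH replicate 1 or 4, to 4 without DMSO replicate 1 or 4 or DINCH replicate 2, to 3 with detection on 1 array, and to 0 with no filter on dim probes and on the in-range arrays. Trib3 lost its DINCH call under each of these. Of all genes, 97 of 20145 were called for DINCH with no filter, 3 of 12133 on the in-range arrays and 609 of 14146 with detection on 1 array. Without DMSO replicate 3, DINCH replicate 1 and DINCH replicate 4, 571 of 11922, 671 of 11947 and 694 of 11984 were called. Without DMSO replicate 1, DMSO replicate 4 and DINCH replicate 2, 796 of 11967, 817 of 12050 and 996 of 11943 were. For MEHP, BDB and DOS 0 of 20 were called by limma, with 8, 7 and 2 at an unadjusted p below 0.05, where 18.9%, 16.3% and 6.34% of all genes were. With all 6 groups in 1 fit, 3 of the 20 were called higher for BDB (Atf3, Ddit3 and Ppp1r15a). In that fit 120 of 11969 genes were called for BDB, 67 of them higher.

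Of 22 tested genes for enzymes that make or break down amino acids, 8 were called lower and 1 higher with DOM. Of all genes 20.5% were called with DOM and 10.6% were called lower. With DINCH 4 were called lower, where 8.26% of all genes were called and 4.02% were called lower. The DINCH count was 2 (Psph and Shmt2) without DMSO replicate 4 or DINCH replicate 4 and with detection on 1 array, and 0 with no filter on dim probes and on the in-range arrays. Under the last 2 settings 97 of 20145 and 3 of 12133 of all genes were called for DINCH. Without DMSO replicate 4, without DINCH replicate 4 and with detection on 1 array, 817 of 12050, 694 of 11984 and 609 of 14146 were. Shmt2 and Shmt1, which interconvert serine and glycine in mitochondria and cytosol, fell with DOM by 1.80 (adjusted p = 7.73e-05) and 1.30 (adjusted p = 0.000383). Psph and Psat1, which make serine, fell by 1.39 (adjusted p = 0.00016) and 1.30 (adjusted p = 0.000634). Odc1, an enzyme of polyamine synthesis named after its values were seen, was the gene called higher (0.66, adjusted p = 0.0322).

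**Figure D4:**
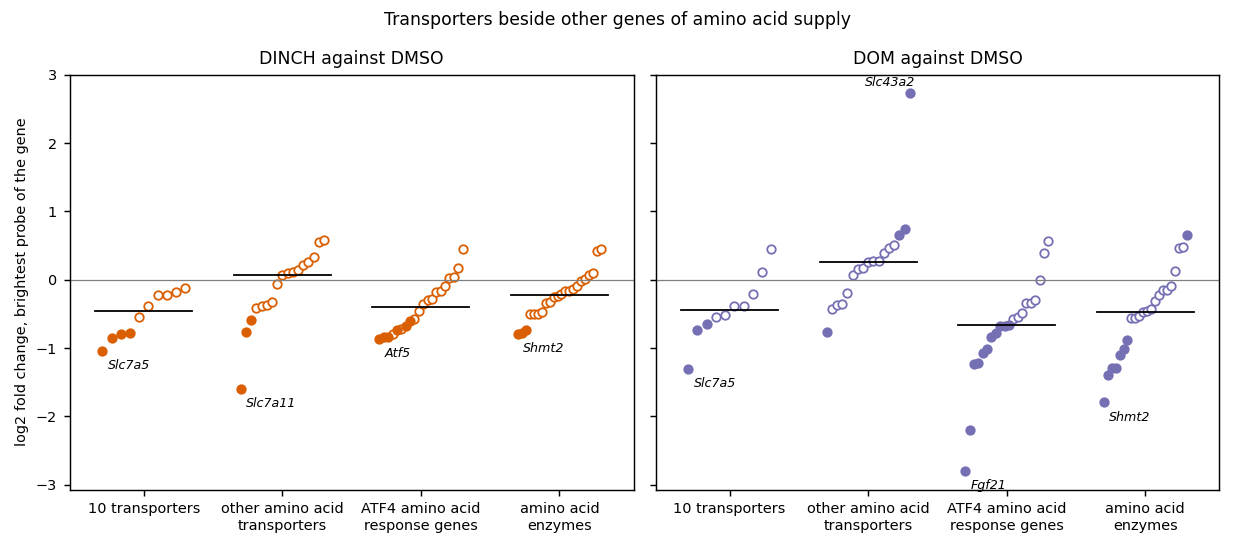
Changes with DINCH and with DOM against DMSO for the 10 transporters, other amino acid transporters, genes of the ATF4 amino acid response and amino acid enzymes. Each point is the log2 fold change of 1 gene's brightest probe, filled where that probe was called, lines are medians and the gene with the largest change of each set is named. With DOM the medians are -0.45, 0.26, -0.67 and -0.46, and Slc43a2 stands alone at 2.73.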

How the data were processed

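RNA of 23 TM4 samples was hybridized to one-colour arrays. Agilent Feature Extraction 11.5.1.1, run by the authors, corrected the spots for background and spatial trend and flagged outliers. The deposited intensity values are linear and unscaled. A second deposited file, from the authors' own software, holds log2 values set to the 75th percentile and centred per probe (column medians -0.361 to 0.183), and served as an alternative. Each array matched its own column there (r at least 0.9996).

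Here the log2 of the intensity (floor 1) was expressed relative to the array's 75th percentile. Flagged spots (102 to 187 on an array) were dropped and repeated spots averaged. RefSeq accessions gave the gene names. Testing required, on all arrays of 1 group or more, a signal well above background and no lower than the 20th percentile. limma 3.58.1 in R 4.3.3 (data.table version 1.17.8) was fitted to the 2 groups compared, over all such probes (23673 to 24348). Figures used Python 3.11.15 and matplotlib 3.10.9. The steps were tested on simulated data.

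All 10 transporters were named. Of each other list, up to 4 genes called for DOM with the largest change were named, with the 5 genes most like Slc7a5 and Slc3a2. Other genes were named from lists or counts after their values were seen. The transporters and lists were chosen with earlier results of these data known.

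Replicate numbers are shared between groups. After group means were removed, arrays with the same number correlated above 0.1 in every pair for DINCH (0.17 to 0.50), BDB (0.25 to 0.43) and DOS (0.20 to 0.45) against DMSO, for DOM against DOS (0.10 to 0.40) and for DOM against MEHP (0.19 to 0.61), which met the check for pairing, on the evidence of the values alone. The values given come from fits without the replicate number, and the number as a block was an alternative.

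Alternatives were quantile normalization, normexp correction (offset 50), no filter, detection on 1 array, slide, slide position and replicate number as blocks, all groups in 1 fit, outlier spots kept, the brightest probe only, the authors' table and leaving out each array. The fit on the 15 arrays whose extraction metrics were all in range was chosen after seeing the data.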

Additional observations from a re-analysis of the deposited data

How the results depend on the processing

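The count of transporters called was 0 for MEHP, BDB and DOS against DMSO and 2 for DOM against MEHP under every setting tried. For DOM against DMSO it was 3 and stayed between 2 and 4. For DINCH it was 5 and fell to 0 with no filter on dim probes, to 2 with detection on 1 array and to 0 on the in-range arrays, where 2 DINCH and 3 DMSO arrays remained, and it ran from 2 to 5 when 1 array was left out (2 without DMSO replicate 1, 3 or 4 or DINCH replicate 1 or 4, 3 without DMSO replicate 2). Of all genes, 97 of 20145 were called for DINCH with no filter, 609 of 14146 with detection on 1 array and 3 of 12133 on the in-range arrays. In the fits without 1 array where fewer transporters were called, the count over all genes ran from 571 of 11922 to 817 of 12050. Against DOS, DOM had 1 transporter called, 2 under quantile normalization and 2 with slide as a block. It had 0 on the in-range arrays and 1 to 2 with 1 array left out. Of all genes, 1821 of 11935, 2243 of 11935 and 221 of 12005 were called under these first 3 alternatives. Against DINCH, DOM had 2, 1 on the brightest probes only, 0 on the in-range arrays and 2 to 3 with 1 array left out. Of all genes, 2462 of 11883 were called on the brightest probes only and 786 of 12042 on the in-range arrays. MEHP against DINCH went from 0 to 2 under normexp correction, where 195 of 11836 genes were called. It went to 2 with all groups in 1 fit, where 375 of 11836 were. With 1 array left out it lay between 0 and 3. The causes were not tested.

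With the replicate number as a block, the counts stayed at 5 for DINCH, 3 for DOM, 0 for MEHP, BDB and DOS, 1 for DOM against DOS, 2 for DOM against DINCH, 2 for DOM against MEHP and 0 for MEHP against DINCH. The check for pairing was not met for MEHP or DOM against DMSO, or for DOM or MEHP against DINCH. In these, 6, 5, 4 and 3 of 8 arrays correlated best with their own number. Against DMSO only replicate 2 fell short of 0.1 (r = -0.14 for MEHP and 0.04 for DOM), so pairing there is not excluded. No called change of a transporter reversed. Of 212 alternative values of called changes 184 kept their call, and those of Slc7a5 with DOM kept it under all 20 settings (-1.46 to -1.23). DOS rests on 3 arrays.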

Other observations

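2 further amino acid transporters were named after their values were seen. Slc7a11, the cystine and glutamate exchanger that feeds glutathione synthesis, stood at 0.03, -0.73, -0.26 and -0.17 on the DMSO arrays and at -2.81, -1.48, -1.32 and -1.94 on the DINCH arrays, without overlap. It was 3.04-fold lower with DINCH (log2 change -1.60, SE 0.31, adjusted p = 0.0147 by limma) and changed by 1.14-fold with DOM (adjusted p = 0.523). The DINCH call was lost with no filter on dim probes and on the in-range arrays. In the direct comparison it was 2.67-fold higher with DOM than with DINCH (adjusted p = 0.00734).

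Of the 44 other listed transporters 17 were tested for MEHP, and 1 was called, where 1.68% of all genes were called. It was Slc38a4, a carrier of small neutral and cationic amino acids. Along with Slc38a4, Slc43a2 was called too (2 in all) under quantile normalization, with slide as a block and on the brightest probe only. The same held in the authors' table and without DMSO replicate 3. Under normexp correction, with no filter on dim probes and on the in-range arrays 0 were called. There 115 of 11948, 3 of 20145 and 68 of 12094 of all genes were called. The level of Slc38a4 was low, though well above background on all 4 arrays of both groups. It was -3.93, -3.52, -4.17 and -3.47 in DMSO and -2.47, -2.77, -2.43 and -2.53 with MEHP, so no MEHP array reached the DMSO range. It was 2.33-fold higher (log2 change 1.22, SE 0.17, adjusted p = 0.0118 by limma). DOS had it 1.57-fold higher (adjusted p = 0.522), which was not called.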
